A study of Mus musculus with 25 samples.

Results

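Heat shock chaperones are described here by time of day and by *Bmal1* genotype in spinal cord cholinergic neurons. The 10 genes were taken by name from the table of 50559 genes, namely *Hspa1a*, *Hspa1b*, *Hspa8*, *Hsph1*, *Hsp90aa1*, *Hspd1*, *Hspe1*, *Hspb1*, *Dnajb1*, and *Bag3*, and all 10 passed the filter on low counts that kept 21746 genes. mRNA bound to hemagglutinin-tagged ribosomes (RiboTag) was pulled down by immunoprecipitation (IP) and sequenced, with 1 spinal cord for each library; the C57BL/6J mice were male and 6 mo of age. Controls were *ChAT-Cre*;*RiboTag* fx/+ mice, labeled wild-type, and *ChAT-BKO* mice, labeled *Bmal1* knockout, carried the same alleles plus *Bmal1* fx/fx. Both genotypes thus carried the Cre driver and the ribosome tag, and the deletion and the tag both depended on Cre from the choline acetyltransferase gene. Mice were taken at ZT8, in the light period, or at ZT20, in the dark period, with 6 mice in each of the 4 groups, and 1 pooled input library of spinal cord RNA stood beside the 24 IP libraries.

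The heat shock response is the program by which cells raise chaperones when proteins unfold. Its main activator, the transcription factor HSF1, binds heat shock elements, which are inverted repeats of a short GAA unit. HSP70 proteins bind exposed stretches of client proteins in a cycle driven by ATP, J-domain proteins such as DNAJB1 deliver the clients, and HSPH1 and BAG3 act as nucleotide exchange factors. Motor neurons are known for a high threshold for inducing this response. In mouse liver, targets of HSF1 are known to cycle across the day.

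Total counts ran from 4.04 to 31.7 M per IP library, so a count of 0 allows up to 0.0947 to 0.743 CPM (counts per M counts of the library, from 3 counts, counting error only). At ZT8, *Arntl*, the gene that encodes BMAL1, averaged 8.44 ± 1.43 CPM (SD, n = 6) in control libraries against 2.64 ± 0.538 CPM with the deletion, and at ZT20 8.73 ± 1.18 against 1.92 ± 0.515 CPM, with no overlap between genotypes at either time. All 7 listed cholinergic markers were above the input (median log2 ratio 2.37), and 0 of the markers of oligodendrocytes, astrocytes, microglia, endothelium, fibroblasts, or skeletal muscle were. Summed cholinergic markers had group medians of 4385 to 4663 CPM, and summed oligodendrocyte markers of 1812 to 1950 CPM. In such bulk samples, fewer cells of a type and less RNA per cell cannot be told apart.

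*Hspa1a* and *Hspa1b* encode the stress-inducible HSP70 proteins, and both are genes with 1 exon on chromosome 17 (GRCm38), *Hspa1a* at chr17:34969190-34972156 and *Hspa1b* at chr17:34956436-34959238, both on the minus strand. Their transcripts are 2967 and 2803 bases long, and 38.1% of the 150-base windows of *Hspa1a* and 40.5% of those of *Hspa1b* are also found letter for letter in the other. Counts of both, and of *Hspa8*, *Hsp90aa1*, *Hspd1*, and *Hspb1*, were fractional in all 24 IP libraries. The fractions come from estimation and do not show which genes a read was divided between. Their RefSeq promoters (300 bases, 250 before and 50 from the start site on) are 98.7% identical. The 45 bases around the only heat shock element match of each are shown, 5′ to 3′, with the match in capitals, to show that this stretch is the same in both genes.
Hspa1a, chr17:34972235-34972279, minus strand: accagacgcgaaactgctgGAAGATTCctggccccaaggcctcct
Hspa1b, chr17:34959317-34959361, minus strand: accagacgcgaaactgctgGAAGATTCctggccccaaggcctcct
The match begins at position -104 from the start site in both, and a CCAAT box begins at -67 in both.

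Promoters from RefSeq (GRCm38.p6) were found for 8 of the 10 genes, with 11 start sites among them; *Hspa8* and *Hsp90aa1* are named only. Heat shock elements were searched as GAANNTTC or TTCNNGAA, which read the same on both strands, and in the 3-unit form GAANNTTCNNGAA or TTCNNGAANNTTC, which contains the shorter ones. The shorter form was found in 7 of these 8 genes, against 17% of 27025 genes in the promoter table, and the 3-unit form in 3 of 8, against 0.662%. An E-box (CACGTG), the element bound by CLOCK and BMAL1, was found in 2 of 8, *Hspd1* and *Hsph1*, against 8.09%. The genes were chosen as heat shock genes, so these shares describe the list. The windows of 2 further genes are shown because they differ in how their elements are arranged.
Hspe1, chr1:55088053-55088082, plus strand: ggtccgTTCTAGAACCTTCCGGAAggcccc
Hspb1, chr5:135887793-135887837, plus strand: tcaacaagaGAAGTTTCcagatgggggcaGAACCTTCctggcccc
The *Hspe1* window holds an unbroken run of units, from position -89 on, and the same run begins at -144 from 1 of the 2 start sites of *Hspd1*. These 2 genes are read in opposite directions and overlap at their starts, *Hspd1* at chr1:55077835-55088243 and *Hspe1* at chr1:55088132-55091307, and the window shown is upstream of *Hspe1* and inside the first exon of a *Hspd1* transcript. *Hspb1* holds 2 separate matches, at -117 and -97. *Hsph1* holds 1 match before each of its start sites and a 3-unit form after them, *Bag3* holds 1 match after the start site, at position 42, and *Dnajb1* holds none in either of its windows.

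**Figure D1:**
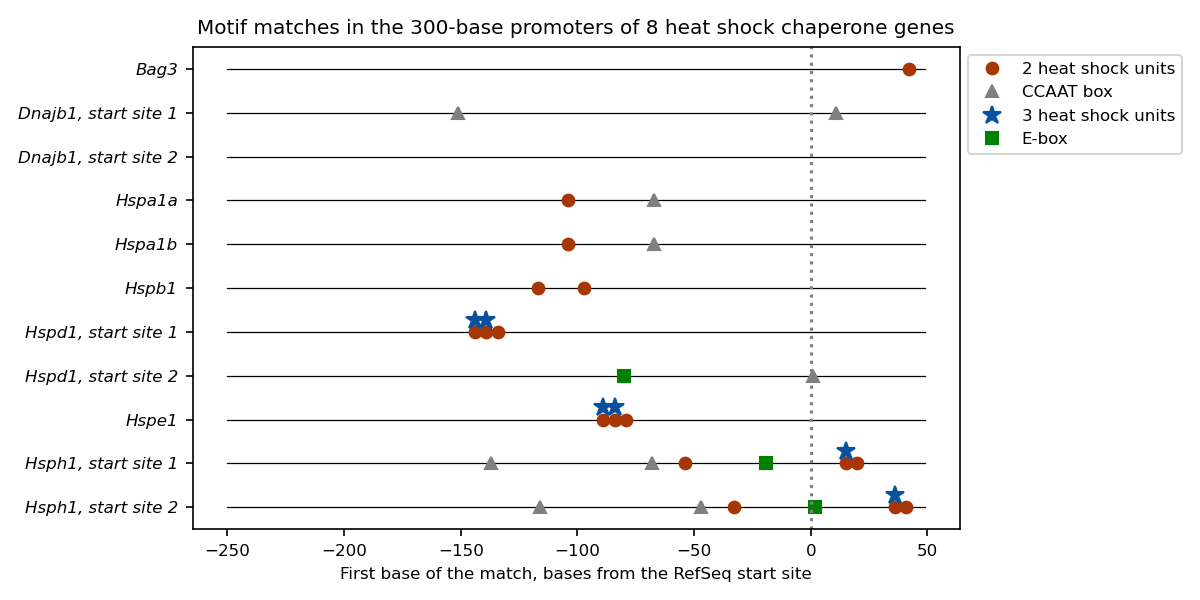
Positions of motif matches in the 300-base promoters of 8 heat shock chaperone genes, 1 line for each start site, with distance from the RefSeq start site in bases on the x axis. Circles mark the shorter heat shock element, stars the 3-unit form, squares the E-box, and triangles the CCAAT box; *Hspa1a* and *Hspa1b* share the positions -104 and -67.

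The 10 genes together took 1.11% to 1.36% of all counts (median 1.17%) in the IP libraries. *Hspa8*, the constitutive HSP70 of the cytosol, was the highest per exon length at 1660 ± 98 CPM per kb (SD, n = 24). *Hsp90aa1*, the inducible HSP90, followed at 677 ± 30.3 CPM per kb, and the small heat shock protein gene *Hspb1* (HSP27, which holds unfolding proteins without ATP) at 469 ± 99.1 CPM per kb. These 2 overlapped, since *Hspb1* reached 725 and *Hsp90aa1* went down to 631 CPM per kb. *Bag3*, a cochaperone of selective autophagy, was at 221 ± 19.2 CPM per kb and *Hspd1*, the mitochondrial chaperonin HSP60, at 168 ± 15.2 CPM per kb, with overlapping ranges. The next pair also overlapped, with *Hspe1*, the HSP10 lid of that chaperonin, at 53.1 ± 7.71 CPM per kb and *Hsph1* at 46.6 ± 4.91 CPM per kb. *Dnajb1* was at 23.6 ± 3.68, *Hspa1a* at 14.4 ± 3.32, and *Hspa1b* at 6.64 ± 3.49 CPM per kb, each overlapping its neighbor. The stress-inducible HSP70 genes thus stood at the low end of the list, and the constitutive one at the high end.

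Relative to the pooled input, which is 1 library and has no replicate, *Hspb1* had the highest log2 ratio of mean IP CPM to input CPM, 3.50 (2.90 to 4.09 over the 24 libraries), from 42.8 CPM in the input. *Bag3* followed at 3.04 (2.87 to 3.30), from 68.8 CPM. Both lay above the median of 2.37 of the cholinergic markers. *Hspa8* was at 1.69, *Hspd1* at 1.36, *Hspa1a* at 1.31, *Hsp90aa1* at 1.23, *Hspe1* at 0.80, and *Hsph1* at 0.46 on this log2 scale. For *Hspa1b* (0.41) and *Dnajb1* (0.34), single libraries lay on both sides of the input, from -0.76 to 1.64 and from -0.06 to 0.72.

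**Figure D2:**
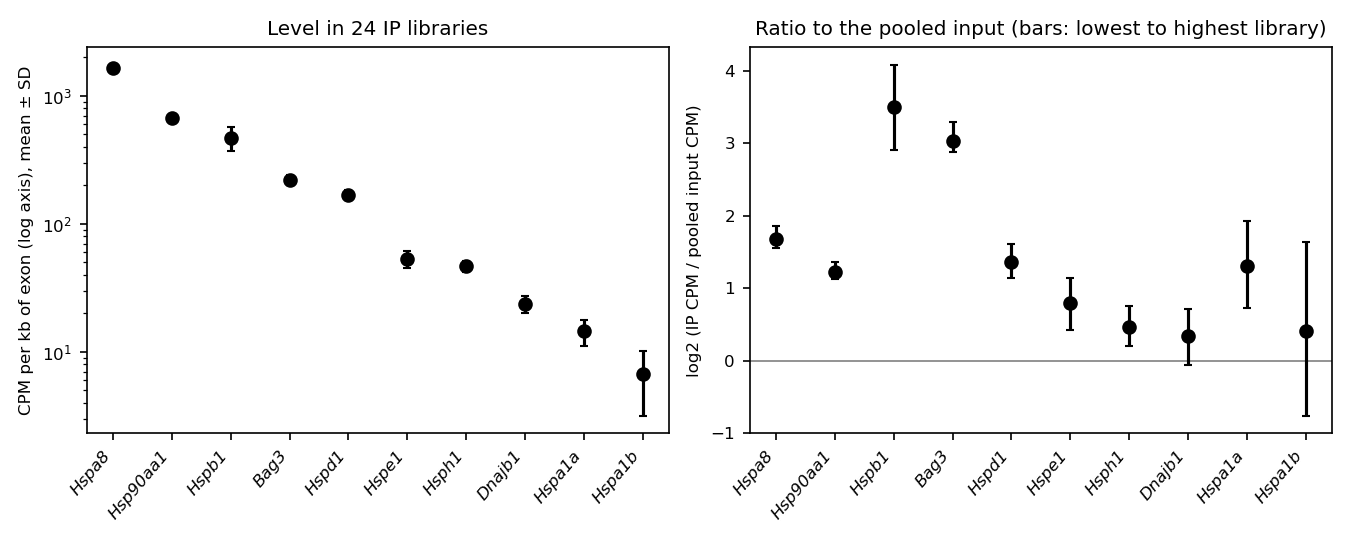
Left, mean ± SD over 24 IP libraries of CPM per kb of exon (log axis) for each gene in falling order; right, log2 ratio of IP CPM to the pooled input, with bars from the lowest to the highest library. *Hspa8* is highest per length at 1660 CPM per kb, and *Hspb1* and *Bag3* have the highest ratios, 3.50 and 3.04.

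The genes were selected on their night-day and genotype values in these libraries, so these values are described without a test, and a gene is said to be called where the fit over all genes gave an adjusted p under 0.05 (edgeR). *Hspa1b* varied most among the 10, from 8.07 to 43.6 CPM over the 24 libraries, a 5.4-fold range, whereas *Hsp90aa1* had a 1.21-fold range. In controls, *Hspa1b* was between 9.01 and 22 CPM (median 11.6) at ZT8 and between 15.8 and 25.9 CPM (median 19.9) at ZT20. In *ChAT-BKO*, it was between 8.07 and 11.3 CPM (median 9.76) at ZT8 and between 23.5 and 43.6 CPM (median 27) at ZT20. All 6 night libraries of *ChAT-BKO* were above all 6 day libraries, whereas the control groups overlapped because 1 day library, Control ZT8 replicate 1, was at 22 CPM. The log2 fold change of night over day was 0.67 (SE 0.17) in controls and 1.63 (SE 0.15) in *ChAT-BKO*, the latter a 3.1-fold difference.

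*Hspa1a* was between 33.1 and 53.5 CPM (median 34.7) at ZT8 and between 41.3 and 51.2 CPM (median 42.1) at ZT20 in controls. It was between 29.1 and 38.1 CPM (median 36.8) at ZT8 and between 42.6 and 67.9 CPM (median 54.7) at ZT20 in *ChAT-BKO*. The *ChAT-BKO* groups did not overlap, and the control groups overlapped through the same library, Control ZT8 replicate 1, at 53.5 CPM. The log2 fold change of night over day was 0.23 (SE 0.10) in controls and 0.63 (SE 0.10) in *ChAT-BKO*.

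Since *Hspa1a* and *Hspa1b* share part of their sequence and their counts were estimated, their sum was also examined. The sum was 50.8 ± 12.1 CPM at ZT8 and 64 ± 6.29 CPM at ZT20 in controls, and 44.9 ± 4.74 and 86.2 ± 16.6 CPM in *ChAT-BKO* (SD, n = 6 each). The log2 fold change of night over day of the sum was 0.35 (SE 0.11) in controls and 0.93 (SE 0.11) in *ChAT-BKO*. *Hspa1b* made up a median of 25.4% of the sum at ZT8 and 31.1% at ZT20 in controls, and 22.6% and 36.1% in *ChAT-BKO*. In *ChAT-BKO*, the share of *Hspa1b* ran from 18.6% to 23% by day and from 30.9% to 42.1% at night, so these ranges did not overlap either.

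*Dnajb1*, the J-domain partner of inducible HSP70, was between 59.1 and 77.1 CPM (median 69) at ZT8 and between 73.5 and 89.9 CPM (median 77.8) at ZT20 in controls. It was between 58.7 and 73.2 CPM (median 62.5) at ZT8 and between 79.7 and 98.7 CPM (median 88.9) at ZT20 in *ChAT-BKO*. The *ChAT-BKO* groups again did not overlap, and the control groups did. The log2 fold change of night over day was 0.20 (SE 0.07) in controls and 0.48 (SE 0.07) in *ChAT-BKO*.

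**Figure D3:**
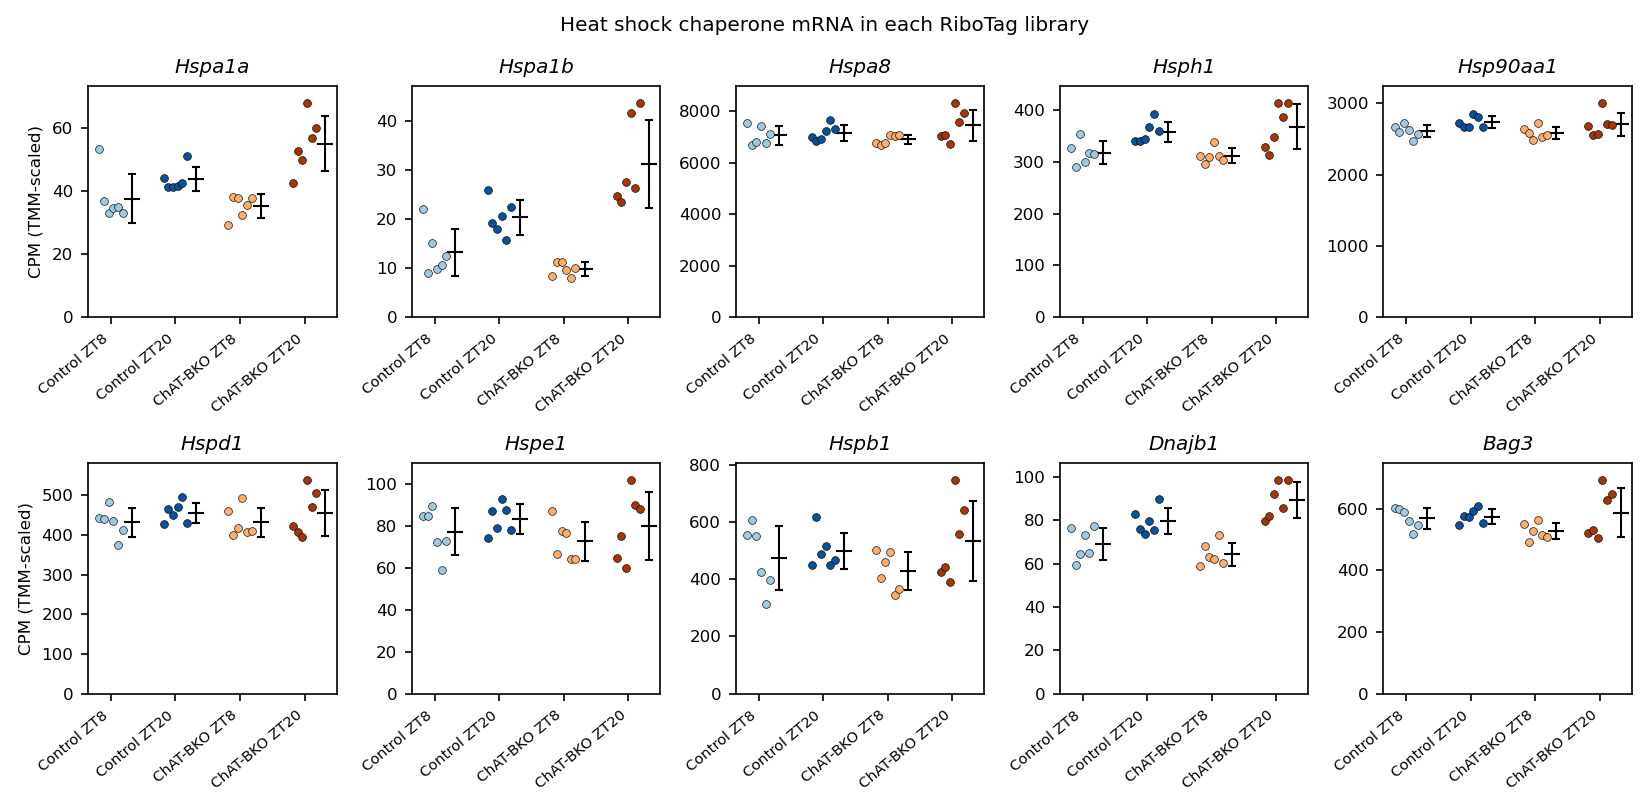
CPM on TMM-scaled library sizes (y axis, from 0) of each gene in each of the 24 IP libraries, with 6 points per group and the mean ± SD beside them. In *ChAT-BKO* the ZT20 points of *Hspa1a*, *Hspa1b*, and *Dnajb1* all lie above the ZT8 points, and the other 7 genes overlap.

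The other 7 genes overlapped between day and night in both genotypes. *Hsph1*, the HSP110 exchange factor, came nearest, with 291 to 355 CPM (median 316) at ZT8 and 341 to 392 CPM (median 353) at ZT20 in controls. In *ChAT-BKO*, it was at 296 to 339 CPM (median 311) by day and 314 to 414 CPM (median 368) at night. Its log2 fold change of night over day was 0.18 (SE 0.06) in controls and 0.24 (SE 0.07) in *ChAT-BKO*. *Hspb1* was at 474 ± 113 and 498 ± 63.6 CPM at ZT8 and ZT20 in controls and at 429 ± 66.5 and 534 ± 141 CPM in *ChAT-BKO* (SD, n = 6 each). Its log2 fold change was 0.07 (SE 0.12) in controls and 0.31 (SE 0.14) in *ChAT-BKO*. *Bag3* had log2 fold changes of 0.02 (SE 0.05) and 0.16 (SE 0.07), and *Hspa8* of 0.02 (SE 0.04) and 0.11 (SE 0.05). *Hsp90aa1* (0.07 in both), *Hspd1* (0.08 in both), and *Hspe1* (0.11 and 0.12) had nearly the same value in the 2 genotypes.

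All 10 genes were higher at night in both genotypes, with a median log2 fold change of 0.09 in controls and 0.20 in *ChAT-BKO*, where the median over all genes tested was 0.003 in each. In controls, 0 of 10 were called, and 0.115% of all genes were called in either direction by edgeR (0 genes of the list also with DESeq2). In *ChAT-BKO*, 3 of 10 were called higher at night, *Hspa1a*, *Hspa1b*, and *Dnajb1*, and 0.235% of all genes were. The same 3 did not overlap between day and night in *ChAT-BKO*, as was the case for 0.676% of all genes, and 0 of 10 did so in controls, where 0.589% of all genes did. These contrasts chose the list, so nothing is read from the counts. Among the controls, *Bag3* and *Hspb1* turned to lower at night without Control ZT8 replicate 5 (-0.009 and -0.021), as did *Bag3* without Control ZT20 replicate 5 (-0.002). In *ChAT-BKO*, 0 of the 10 changed sign under any alternative. Without Control ZT8 replicate 1, *Hspa1b* was called in controls as well, with a log2 fold change of 0.86 (SE 0.14).

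Markers of other cell types and mitochondrial rRNA were measured in the same libraries. Summed over 6 genes, endothelial markers ran from 8.01 to 12.4 CPM by day and from 10.4 to 19.3 CPM at night in controls, and from 8.07 to 12.9 and from 11 to 16.4 CPM in *ChAT-BKO*, against 161 CPM in the input. The 5 markers of fibroblasts and meninges had summed medians of 17.6 by day and 26 CPM at night in controls and of 22.5 and 23.8 CPM in *ChAT-BKO*. The 6 skeletal muscle markers had medians of 20.1 and 8.31 CPM in controls and of 4 and 50.4 CPM in *ChAT-BKO*, with single libraries from 1.42 to 127 CPM. Astrocyte markers had group medians of 192 to 210 CPM and microglial markers of 12 to 13.3 CPM. The mitochondrial rRNAs *mt-Rnr1* and *mt-Rnr2* together took 0.029 to 0.034% of CPM by day and 0.038 to 0.055% at night in controls, without overlap, and 0.029 to 0.044% and 0.043 to 0.055% in *ChAT-BKO*. Oligodendrocyte markers had summed medians of 1858 by day and 1950 CPM at night in controls and of 1812 and 1921 CPM in *ChAT-BKO*. Medians at night were thus higher in both genotypes for markers of endothelium, oligodendrocytes, and fibroblasts and meninges, and for mitochondrial rRNA. They were lower in both genotypes for microglial markers (12.6 to 12.2 and 13.3 to 12 CPM) and for cholinergic markers (4663 to 4505 and 4478 to 4385 CPM). The part of these in the night-day values of the 10 genes was not tested.

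**Figure D4:**
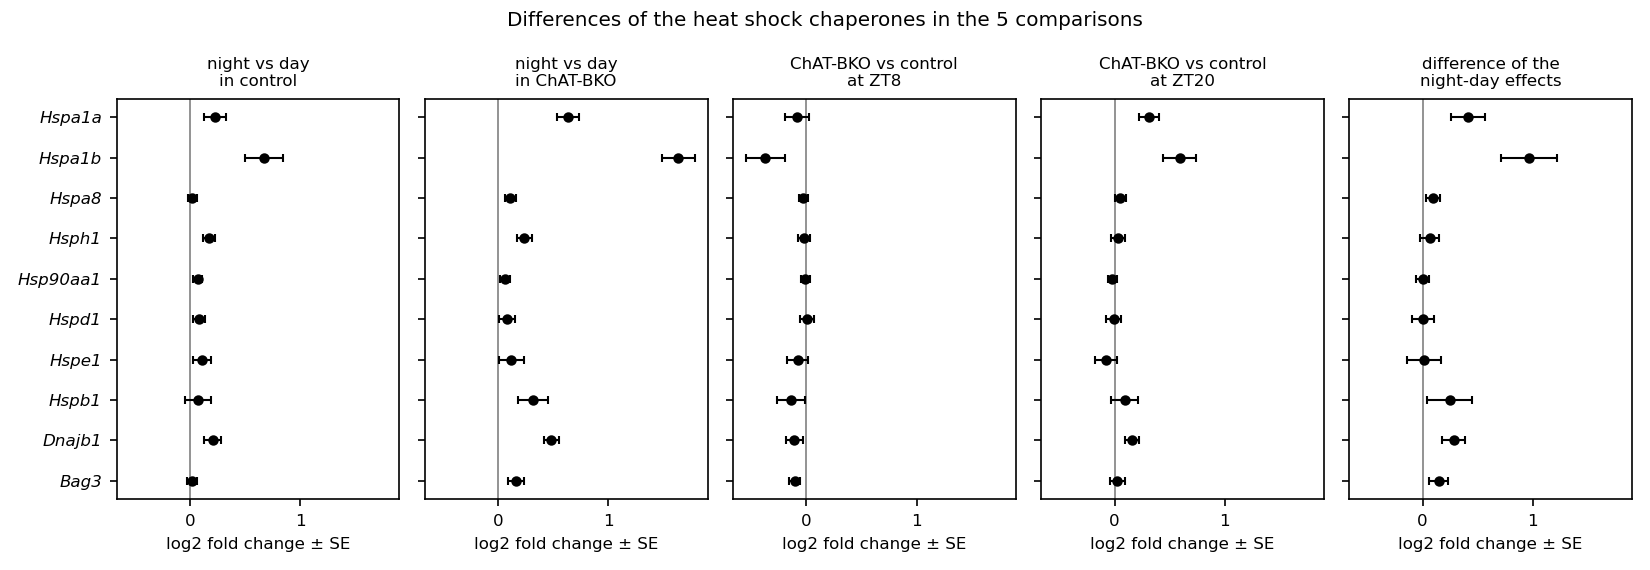
Log2 fold change ± SE (x axis) of each gene in the 2 night-day comparisons, the 2 genotype comparisons, and the difference of the night-day effects. *Hspa1b* is farthest from 0 in every panel, with 1.63 for night over day in *ChAT-BKO* and 0.97 for the difference of effects.

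Between genotypes at ZT8, the 10 genes were close, with log2 fold changes of *ChAT-BKO* over control from -0.37 (*Hspa1b*, SE 0.18) to 0.005 (*Hspd1*) and a median of -0.08. Of the 10, 9 were lower in *ChAT-BKO* and 1 was higher, and 0 were called, where 0.184% of all genes were. *Hspd1* changed sign under 8 of 21 alternatives. *Hspa1a* became higher (0.031) without Control ZT8 replicate 1, *Hsph1* (0.013) without Control ZT8 replicate 3, and *Hsp90aa1* without replicate 3 of either genotype (0.004 and 0.003). *Bag3*, which lies 15.3 Mb from *Arntl* on chromosome 7, was at 570 ± 34 CPM in control and 527 ± 26.4 CPM in deleted libraries.

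Between genotypes at ZT20, 7 of the 10 genes were higher in *ChAT-BKO*, with a median log2 fold change of 0.04. The direction depended on the setting for 4 of the 10. *Hspd1* changed sign under 10 of 21 alternatives, *Hsph1* under 3, *Bag3* under 2, and *Hspb1* under 1. Without *ChAT-BKO* ZT20 replicate 4, *Hsph1*, *Bag3*, and *Hspb1* were lower in *ChAT-BKO*, at -0.009, -0.029, and -0.028. *Hspa1b* averaged 20.3 ± 3.56 CPM in control and 31.2 ± 8.93 CPM in deleted libraries (SD, n = 6 each), a log2 fold change of 0.59 (SE 0.15). *Hspa1a* was at 43.7 ± 3.84 and 55 ± 8.69 CPM, a log2 fold change of 0.31 (SE 0.09), and *Dnajb1* at 79.6 ± 6.06 and 89.4 ± 8.2 CPM, a log2 fold change of 0.16 (SE 0.07). For *Hspa1b* and *Hspa1a*, 4 of the 6 *ChAT-BKO* libraries were above all control libraries. Of the 10 genes, 0 were called by edgeR, where 0.23% of all genes were, and 1, *Hspa1b*, was called by DESeq2, where 0.428% of all genes were in either direction. In neither genotype comparison were the 12 libraries of any of the 10 genes apart, as they were for 0.57% of all genes at ZT8 and 0.506% at ZT20.

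The difference of the night-day effects, *ChAT-BKO* minus control, was 0.97 (SE 0.25) for *Hspa1b*, 0.41 (SE 0.15) for *Hspa1a*, 0.28 (SE 0.10) for *Dnajb1*, and 0.24 (SE 0.21) for *Hspb1* on the log2 scale. It ran from -0.001 to 0.14 for the other 6 genes, of which *Hspd1*, *Hspe1*, and *Hsp90aa1* changed sign under 16, 14, and 11 of 32 alternatives. Over all genes, 0 of 21746 (0%) were called for this difference by edgeR, where 847 (3.89%) had an unadjusted p under 0.05, and 0 of the 10 were called by any tool run. The larger night-day values in *ChAT-BKO* are therefore not shown to differ from those of controls.

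The *ChAT-BKO* ZT20 libraries did not behave alike. Replicates 4, 5, and 6 had the 3 highest values in their group for every listed gene except *Hspa1b* and *Dnajb1*. For *Bag3* these were 695, 628, and 647 CPM against 507 to 532 CPM in replicates 1 to 3, and for *Hspb1* 748, 557, and 643 CPM against 389 to 443 CPM. *Hspa1b* was high in replicates 4 and 6 only, at 41.5 and 43.6 CPM. For *Dnajb1*, replicate 3 was at 92.1 CPM, above replicate 5 at 85.8 CPM. The same split appeared in the length slope, the change in a library's log2 CPM, set against each gene's mean over the libraries, for each doubling of exon length. It was 0.0777, 0.0185, and 0.1409 in replicates 1, 2, and 3 and -0.0839, -0.0549, and -0.0282 in replicates 4, 5, and 6. Total counts were 17.5, 7.43, and 18.7 M in replicates 1 to 3 and 7.8, 5.22, and 5.26 M in replicates 4 to 6. Replicates 5 and 6 were thus the lowest of the group, and replicate 2 lay below replicate 4. With group means removed, r with log2 total counts over the 24 IP libraries ran from -0.319 (*Dnajb1*) to 0.060 (*Hsp90aa1*) among the listed genes. It was -0.311 for *Hsph1*, -0.299 for *Hspa1b*, -0.296 for *Hspa1a*, -0.238 for *Bag3*, and -0.131 for *Hspb1*, given as a description. Median total counts were 15.1 M at ZT8 and 7.6 M at ZT20 in *ChAT-BKO*, and 9.2 and 12.4 M in controls. The part of depth in the night-day values was not tested.

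To ask whether the genes move together apart from the groups, each group's mean was removed from log2 CPM and the residuals were correlated over the 24 IP libraries. Of 45 pairs, 43 had a positive Pearson r, with a median of 0.54. An r over 0.5 was found in 53.3% of these pairs and in 7.56% of the pairs of a member with any other gene tested, whose median r was -0.030. The other genes tested include genes with few counts, and they were not matched to the members in level. The contrast of these shares therefore does not show how particular the covariation is to chaperones. Both r and Spearman's rho passed an adjusted p of 0.05 in 21 pairs (permutation within groups, Benjamini-Hochberg over 45 pairs). The strongest pair was *Hspd1* and *Bag3* (r = 0.925, rho = 0.943, adjusted permutation p = 7.5e-05 and 0.0003). The chaperonin partners *Hspd1* and *Hspe1*, which share the promoter region shown, followed the same pattern (r = 0.870, rho = 0.864, adjusted permutation p = 0.000129 and 0.0003). *Hspb1* and *Hspe1* had r = 0.906 (rho = 0.839, adjusted permutation p = 7.5e-05 and 0.000337). With the length slope left in, *Dnajb1* stood apart from these, with r of -0.02 with *Hspe1*, -0.03 with *Hspb1* and 0.02 with *Hspd1*. It went with *Hspa1b* (r = 0.568, rho = 0.521, adjusted permutation p = 0.0268 and 0.0477) and *Hspa8* (r = 0.538, rho = 0.562, adjusted permutation p = 0.0332 and 0.0302). *Hspa1a* and *Hspa1b* had r = 0.690 (rho = 0.490, adjusted permutation p = 0.00893 and 0.0543), which fell to 0.451 without the 2 libraries farthest from the median of *Hspa1a*. Without the 2 farthest libraries, r was 0.900 for *Hspd1* and *Bag3*, 0.817 for *Hspd1* and *Hspe1*, 0.868 for *Hspe1* and *Hspb1*, 0.463 for *Hspa1b* and *Dnajb1*, and 0.603 for *Hspa8* and *Dnajb1*. The adjusted p of 7.5e-05 comes from a permutation p of 1e-05, the smallest these permutations can give.

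The libraries differed in how log2 CPM depended on exon length, and this slope moved with the same genes within groups. The slope ran from -0.085 to 0.141 over the libraries, with group medians from -0.022 to 0.010. Its r with the residuals was -0.950 for *Hspb1*, -0.940 for *Hspe1*, -0.844 for *Bag3*, and -0.827 for *Hspd1*, -0.606 for *Hsp90aa1*, and between -0.404 and 0.151 for the other 5; the median absolute r over 9113 genes was 0.606. Removing the slope left 19 pairs with r over 0.5, against 24 before, and the median r at 0.45. The pair *Hspb1* and *Hspe1* fell from 0.906 to 0.12 and *Hspd1* and *Hspe1* from 0.870 to 0.48. In contrast, *Hspd1* and *Bag3* (0.75), *Hsph1* and *Bag3* (0.81), *Hspa1a* and *Hspa1b* (0.67), and *Hspa1b* and *Dnajb1* (0.63) stayed high. The r of *Dnajb1* rose to 0.351 with *Hspe1*, 0.382 with *Hspb1*, 0.264 with *Hspd1*, and 0.455 with *Bag3*, so it no longer stood apart as clearly.

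**Figure D5:**
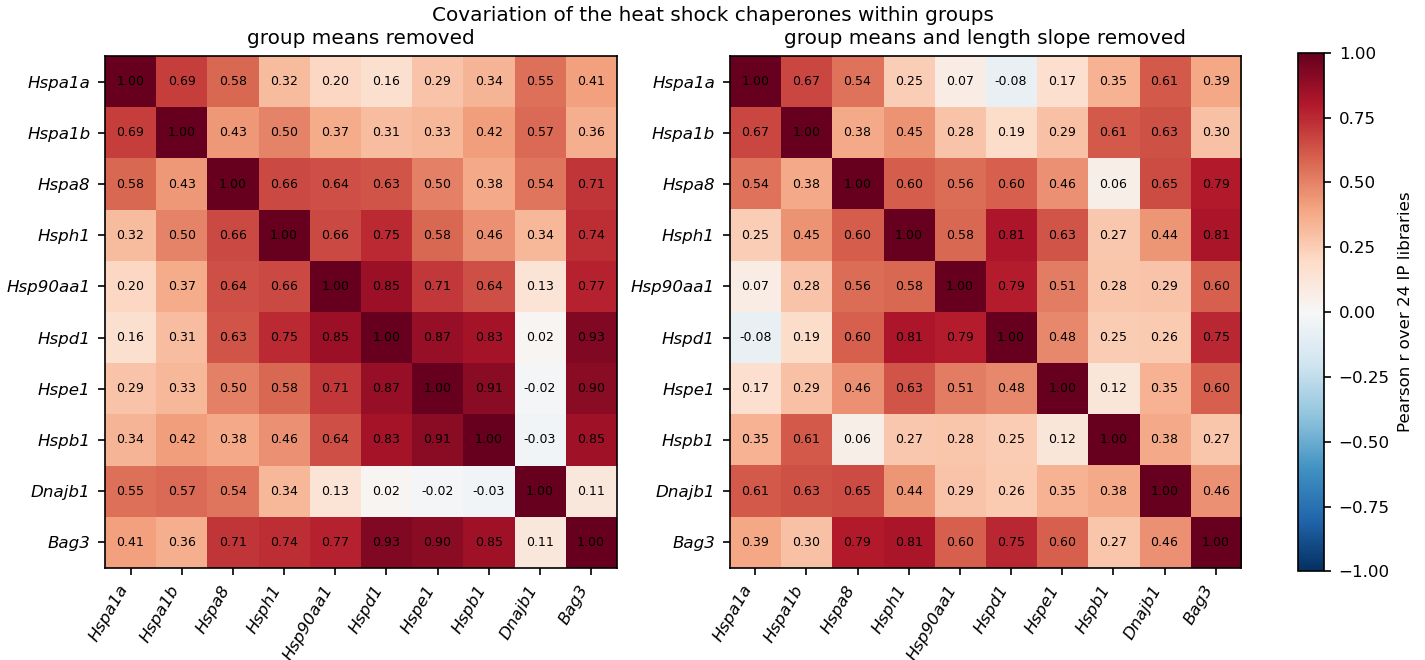
Pearson r between each pair of genes over 24 IP libraries, with group means removed (left) and with group means and each library's length slope removed (right), on a color scale from -1 to 1. *Hspb1* with *Hspe1* falls from 0.91 to 0.12, and *Hspa1a* with *Hspa1b* stays at 0.69 and 0.67.

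With the length slope as a covariate in edgeR, a fit chosen after seeing the data, 7 of the 10 genes were called higher at night in *ChAT-BKO*, where 1.36% of all genes were. These were *Hspa1a*, *Hspa1b*, *Dnajb1*, *Hspa8*, *Hsph1*, *Hspb1*, and *Bag3*. In controls, *Hspa1b* (log2 fold change 0.69, SE 0.14) and *Hsph1* (0.18, SE 0.04) were called higher at night, where 0.906% of all genes were. At ZT20, *Hspa1a* and *Hspa1b* were called higher in *ChAT-BKO* than in controls, where 0.575% of all genes were called higher. The difference of the night-day effects called 0 of the 10 in this fit too.

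The wider chaperone network was examined in 72 genes of textbook classes outside the 10, all of which were tested over all genes by edgeR. These lists were chosen with earlier results of these data known, so the counts of listed genes are given as a description. In controls, 0 of 72 were called between night and day, 12 had an unadjusted p under 0.05, and DESeq2 called 2. Of all genes, 8.25% had an unadjusted p under 0.05 there and DESeq2 called 0.584%. In *ChAT-BKO*, 1 rose and 1 fell at night, where 0.29% of all genes were called by edgeR in either direction. DESeq2 called 6 of the 72 and 1.03% of all genes. *Hspa5*, the HSP70 of the endoplasmic reticulum (ER), rose from 472 ± 23.3 to 596 ± 52.9 CPM (SD, n = 6 each), which is 0.34 on the log2 scale (SE 0.06, edgeR adjusted p = 0.011). *Cirbp*, an RNA-binding protein induced by mild cold, fell from 79.3 ± 9.46 to 54.1 ± 4.4 CPM, which is -0.56 on the log2 scale (SE 0.08, edgeR adjusted p = 0.00182). Both calls held under all 21 alternatives. In controls, *Hspa5* had a log2 fold change of 0.18 (adjusted p = 0.283) and *Cirbp* of -0.24 (adjusted p = 0.606), and the differences between genotypes in these effects were 0.15 and -0.32 (adjusted p = 1 for both, edgeR).

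By class, the 7 ER chaperones were all higher at night in both genotypes, with median log2 fold changes of 0.13 in controls and 0.21 in *ChAT-BKO*, and 5 of 7 had an unadjusted p under 0.05 in each, beside 8.25% and 9.4% of all genes. *Cirbp* and *Rbm3*, the cold-inducible pair, were both lower at night in both genotypes, and *Rbm3* had a log2 fold change of -0.36 in *ChAT-BKO* (adjusted p = 0.0668, edgeR). The 14 HSP90 and cochaperone genes had medians of 0.07 in both. The 13 genes of the TRiC chaperonin and prefoldin had medians of 0.01 in controls and -0.03 in *ChAT-BKO*. The 9 other HSP70 and HSP110 genes (-0.01 in both) and the 12 J-domain genes (0.03 and 0.01) had medians near 0. The 4 HSF regulators had medians of 0.07 and 0.02, the 5 BAG cochaperones of 0.01 and 0.00, and the 6 other small heat shock protein genes of -0.05 and 0.16. Over all 72 the medians were 0.03 in both, beside 0.003 over all genes. The classes were chosen with earlier results of these data known, so their medians and counts are a description. Between genotypes, 0 of 72 were called by edgeR at ZT8 (1 at an unadjusted p under 0.05, and 1 called by DESeq2) and 0 at ZT20 (3 at an unadjusted p under 0.05). Of all genes, 4.82% at ZT8 and 6.28% at ZT20 had an unadjusted p under 0.05, and DESeq2 called 0.322% at ZT8.

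The 5 genes whose log2 CPM over the 24 IP libraries was most like the mean standardized level of the 10 were *Hsp90b1* (Pearson r = 0.911), *Fkbp5* (0.872), *Hnrnpc* (0.854), *Slc25a25* (0.849), and *Syt4* (0.848), given as a description, since the libraries also differ in group and length slope. *Hsp90b1* encodes GRP94, the HSP90 of the ER, and *Fkbp5* a cochaperone of HSP90. *Hsp90b1* was at 438 ± 31.7 and 474 ± 20.2 CPM at ZT8 and ZT20 in controls and at 415 ± 30 and 482 ± 77.7 CPM in *ChAT-BKO*. Among the most opposite were *Wdr6* (-0.833) and *Mgrn1* (-0.830). *Wdr6* was at 172 ± 15.1 and 155 ± 9.62 CPM at ZT8 and ZT20 in controls and at 180 ± 14.3 and 158 ± 24 CPM in *ChAT-BKO*.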

How the data were processed

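RNA was sequenced from 24 IP libraries, 6 mice in each of 4 groups, and 1 pooled input. The authors aligned reads with STAR 2.7.5 to mm10 and ran RSEM, whose expected counts for each gene are the deposited values, neither normalized nor filtered, of which 6.11% were not whole. All 25 columns were matched to samples by the labels. Counts were rounded to whole numbers and tested in R 4.3.3 with edgeR 4.0.16 (quasi-likelihood F test, TMM, 2-sided). A gene was kept if its counts over the IP libraries summed to 10 or more, Benjamini-Hochberg adjustment ran over every gene kept, and an adjusted p under 0.05 was called. Each comparison of 2 groups used its own 12 libraries, and the difference of effects used all 24. Library sizes for CPM were scaled by TMM, with a prior count of 2 on the log2 scale. Correlations used 100000 permutations within groups.

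The 10 genes and the lists were chosen with earlier results of these data known. The genes named are the 10, listed chaperone genes that were called, the genes most like and most opposite, and *Arntl*. A gene that this rule names is not reported here. *Rbm3* was named after its values were seen. No 2 libraries of a group agreed within sampling noise (chi-square per degree of freedom from 1.86 to 27.8 over 60 pairs). Exon lengths and positions are from GENCODE on GRCm38, the assembly also named mm10, and promoters from RefSeq. The alternatives were DESeq2 1.42.0, its size factors in edgeR, other filters, replicate number as a block, limma 3.58.1 voom, all 24 libraries in 1 fit, each library left out in turn, *Hspa1a* and *Hspa1b* summed, and, chosen after seeing the data, the length slope as a covariate. The fits were run on simulated counts in which 200 genes changed by 1 on the log2 scale. For night over day in *ChAT-BKO*, 99.5% of these were recovered and 2.93% of calls were false. For the difference of effects, these were 96.5% and 4.93%. The simulated libraries had the same relative spread for all genes and no length slope, so they do not show how the fits behave with that slope. In the real groups, the SD of *Hspa1b* was 14% to 36.4% of its mean. The recovered shares therefore do not show how well a change in *Hspa1b* would be found. Protein sequences were not used here.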

Additional observations from a re-analysis of the deposited data

Results flagged for a closer look

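Of 40 groups of 6 libraries, 10 genes in 4 groups, 4 had a highest library set apart from the others by more than 0.625 of the group's range, where chance gives about 1 in 20. *Hspa1a* was at 53.5 CPM in Control ZT8 replicate 1, where the next library was at 36.7 CPM. It was at 51.2 CPM in Control ZT20 replicate 6, where the next was at 44.1 CPM. *Hsph1* was at 339 CPM in *ChAT-BKO* ZT8 replicate 4, where the next was at 311 CPM. *Hsp90aa1* was at 3005 CPM in *ChAT-BKO* ZT20 replicate 4, where the next was at 2712 CPM.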

How the results depend on the processing

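Of 1150 log2 fold changes of the 10 genes under the alternatives, 0 called values changed sign. Also, 0 moved by 1 SD between replicates or more, but leaving out 1 of 6 libraries shifts a group mean too little to reach that bar. Nothing is read from that count. The value of *Hspa1b* for night over day in controls ran from 0.567 to 0.859. Of the values that were not called, 72 changed sign (41 in the difference of effects, 16 and 12 between genotypes at ZT20 and at ZT8, and 3 between night and day in controls), most often *Hspd1*, *Hspe1*, and *Hsp90aa1*. *Hspa1a*, *Hspa1b*, and *Dnajb1* were called higher at night in *ChAT-BKO* under every alternative in which they entered. Genes called between night and day in controls went from 25 to 127 with DESeq2, 85 with the replicate block, and 350 with the length slope, and from 11 to 29 with a library left out. In *ChAT-BKO* they went from 63 to 224 with DESeq2, 140 with all 24 libraries, and 496 with the length slope, and from 33 to 72 with a library left out. Between genotypes, DESeq2 gave 70 at ZT8 and 93 at ZT20 (40 and 50 with edgeR), the replicate block 69 at ZT8, the length slope 166 and 171, and leaving out a library 19 to 42 and 29 to 69. For the difference of effects, 1 gene was called with the length slope. Of the 10 genes, the count in controls went from 0 to 1 with the replicate block, 2 with the length slope, and 0 to 1 with a library left out (1 without Control ZT8 replicate 1). In *ChAT-BKO* it went from 3 to 7 with the length slope, and at ZT20 between genotypes from 0 to 1 with DESeq2 and with the replicate block and 2 with the length slope. Of the 72 other chaperone genes, the count in controls went from 0 to 2 with DESeq2, 1 with the replicate block, and 6 with the length slope. In *ChAT-BKO* it went from 2 to 6 with DESeq2, 5 with all 24 libraries, and 14 with the length slope. At ZT8 between genotypes it went from 0 to 1 with DESeq2, with filterByExpr, with the length slope, and without replicate 6 of either group (0 to 1 over all libraries left out). The cause of these differences was not tested.

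Replicate numbers were shared between groups, but samples with the same number did not deviate together in all 6 pairs of any comparison. Of 6 pairs, 2 to 4 had a correlation over 0.1, and at most 2 libraries correlated best with their own number. Between night and day in controls, the median r was 0.187 with the same number and -0.092 with other numbers. Between genotypes at ZT8, these were 0.319 and -0.216. They were -0.245 and 0.050 between night and day in *ChAT-BKO*, and -0.059 and 0.007 between genotypes at ZT20. The labels do not say what a number stands for, so the replicate block tests only a shared number. It called *Hspa1b* higher at night in controls (log2 fold change 0.69, SE 0.11) and higher in *ChAT-BKO* at ZT20 (0.57, SE 0.11), and changed no other call among the 10. Depth limits *Hspa1b* most, whose counts ran from 33.4 to 522.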
